A study of Mus musculus with 12 samples.

Results

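The phagocyte NADPH oxidase was examined here through 5 of its genes, Cybb, Cyba, Ncf1, Ncf4 and Rac2, in RNA of mouse adipose tissue. They were found by their Ensembl identifiers among the 53431 gene identifiers of the count table. All 5 were present, and all 5 were among the 15968 genes tested after a filter on low counts. The 3 groups had 4 libraries each. Treated libraries came from mice labelled Bbs2-/- that ate Genz667161, an inhibitor of glucosylceramide synthase, which made up 0.033% of the weight of their food between 2 and 6 months. Untreated libraries came from mice labelled Bbs2-/- without the inhibitor, and the third group from mice labelled wild type (WT) without it. The mice shared a mixed C57BL/6 and 129/SvJ background, and the tissue was taken at 6 months of age. The product of Bbs2 belongs to the BBSome, a complex for the traffic of membrane proteins at primary cilia, whose failure causes Bardet-Biedl syndrome. Glucosylceramide synthase makes glucosylceramide, from which most glycosphingolipids are built. The labels name neither the fat depot nor the sex, and whether each library had its own mouse is not stated there either, so the tests rest on variation between libraries, which may be technical.

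The phagocyte oxidase moves electrons from NADPH across a membrane to oxygen and so makes superoxide, which neutrophils and macrophages use against microbes and in signalling. Its core is a membrane heterodimer of gp91phox, the catalytic chain encoded by Cybb, and p22phox, encoded by Cyba. On activation, cytosolic proteins that include p47phox (Ncf1) and p40phox (Ncf4), with the small GTPase Rac2, move to the membrane and switch the core on. Loss of a phox subunit causes chronic granulomatous disease in people. In adipose tissue the enzyme is known mainly from macrophages, which gather there in obesity.

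The genes lie at these positions in mm10, from the GENCODE annotation. Cybb spans chrX:9435252-9487771, Cyba chr8:122424776-122432930 and Ncf1 chr5:134220053-134229625, all on the minus strand. Ncf4 spans chr15:78244801-78262580 on the plus strand and Rac2 chr15:78559167-78572783 on the minus strand, with 296586 bases between them. All 5 are annotated as protein coding. Ncf1 shares 408 exon bases with Gtf2ird2 on the opposite strand, and the strand setting of the authors' counting is not given in the sources used here. Gtf2ird2 had 62 to 135 counts in a library, against 246 to 4574 counts for Ncf1, and it passed the test in none of the comparisons (log2 fold change 0.10 for untreated over WT, edgeR quasi-likelihood adjusted p = 0.727).

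Promoter sequences are shown because the members changed together. RefSeq promoters on GRCm38.p6, each 300 bases long and lying mostly before the annotated start, were matched for 3 of the 5 members. They lie at chrX:9469275-9469574 for Cybb, chr8:122432891-122433190 for Cyba and chr5:134229576-134229875 for Ncf1, all on the minus strand. The Cybb window lies inside the GENCODE span of the gene. Capitals mark matches on either strand to GAGGAA, the core letters bound by PU.1 (encoded by Spi1), to CCAAT, and to TATAAA.
Cybb: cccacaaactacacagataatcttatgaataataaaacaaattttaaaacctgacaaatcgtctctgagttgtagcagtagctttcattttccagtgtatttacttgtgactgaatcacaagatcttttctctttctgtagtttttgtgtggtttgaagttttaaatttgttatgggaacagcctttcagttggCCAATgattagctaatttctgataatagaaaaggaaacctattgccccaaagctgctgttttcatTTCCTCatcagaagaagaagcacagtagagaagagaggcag
Cyba: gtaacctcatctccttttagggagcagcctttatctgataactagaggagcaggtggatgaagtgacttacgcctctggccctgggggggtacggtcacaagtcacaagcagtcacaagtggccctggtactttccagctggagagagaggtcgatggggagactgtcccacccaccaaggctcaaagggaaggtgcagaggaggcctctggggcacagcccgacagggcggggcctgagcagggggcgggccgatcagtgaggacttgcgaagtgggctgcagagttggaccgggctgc
Ncf1: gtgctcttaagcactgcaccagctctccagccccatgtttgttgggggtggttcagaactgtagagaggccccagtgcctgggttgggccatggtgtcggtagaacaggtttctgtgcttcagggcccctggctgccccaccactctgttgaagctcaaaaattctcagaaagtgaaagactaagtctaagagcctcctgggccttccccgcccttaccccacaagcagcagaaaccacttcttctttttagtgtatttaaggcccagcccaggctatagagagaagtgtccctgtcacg

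The Cybb promoter holds TTCCTC, the reverse complement of GAGGAA, at 10 to 15 bases after the start, and CCAAT at 56 to 52 bases before it. None of the 3 motifs was found in the Cyba or Ncf1 window. Of 32851 mouse promoters of this length, 28.3% hold GAGGAA, 37.4% hold CCAAT and 13.6% hold TATAAA on either strand, so each match is a common one. The letters differ in composition, with 35.3% G or C in the Cybb window, 60.7% in that of Cyba and 54.0% in that of Ncf1.

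The libraries held 16317865 to 20224200 estimated counts. Bbs2, the gene named in the genotype, did not follow its label. It was at 53.7 to 65.4 counts per 1e6 counts (CPM) in treated libraries and 53.7 to 70.6 CPM in untreated libraries, against 12.1 to 12.7 CPM in libraries labelled WT, so every direction given here is between libraries as labelled. Foxj1, a gene of ciliated epithelium, had 154 and 140 counts in treated libraries 1 and 3, and 48 and 164 counts in WT libraries 1 and 4. It had at most 2 counts in the other 8 libraries. In WT library 1, 6 epididymis genes summed to 1080 CPM, against at most 3.49 CPM in any other library. WT libraries 2 and 3 carry library names of a single type where the other 10 are named as merged. Results were therefore also computed without these libraries. Adipocyte markers identified the tissue in every library, with 28500 to 43100 CPM over 10 markers in treated, 14400 to 17800 CPM in untreated and 25600 to 45000 CPM in WT libraries.

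All 5 oxidase genes were higher in untreated Bbs2-/- libraries than in WT libraries, by 3.94-fold to 5.36-fold, and all 5 were lower in treated than in untreated libraries, by 4.41-fold to 7.94-fold. No untreated library overlapped with a treated or a WT library for any of them. The share of all genes tested with such a gap was not counted, so how unusual it is was not shown. Treated and WT libraries overlapped for all 5, and none of the 5 passed the test between those groups. These are bulk libraries, in which fewer cells of a type and less RNA per cell cannot be told apart. The plot of CPM by library shows the gap between the untreated libraries and the rest.

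**Figure D1:**
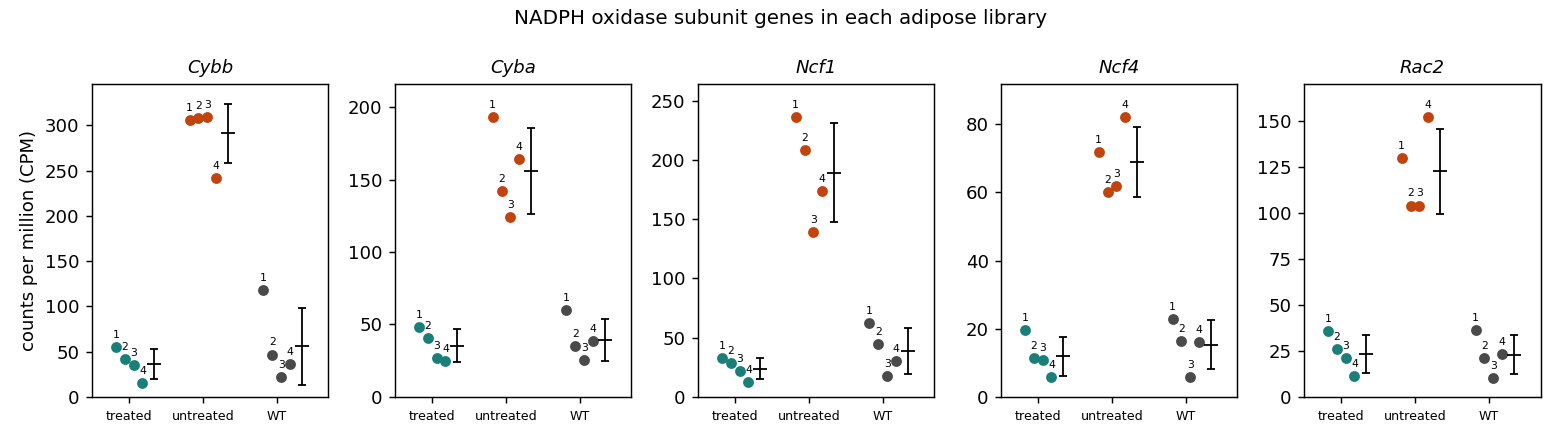
Counts per 1e6 counts (CPM, linear axis from 0) of the 5 oxidase genes in each of 12 libraries, in treated Bbs2-/-, untreated Bbs2-/- and WT groups. Points are libraries with their replicate number, and the bar beside them is the mean with 1 SD (n = 4). The untreated libraries stand above all others in each panel, and WT library 1 is the highest WT library in each.

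Of the membrane pair, Cybb encodes the chain that holds the hemes and binds NADPH. Cybb was at 55.2, 41.4, 34.7 and 15.6 CPM in treated libraries 1 to 4, at 306, 308, 309 and 242 CPM in untreated libraries and at 118, 46.8, 21.9 and 36.3 CPM in WT libraries. The lowest untreated library was thus above the highest WT library, which is the one with epididymis RNA. Untreated over WT, the log2 fold change was 2.38 ± 0.49 (SE), which is 5.22-fold with edgeR quasi-likelihood adjusted p = 0.00308. Without WT library 1 it was 3.06 (adjusted p = 0.000195), and without all 4 libraries with Foxj1 counts it was 3.08 (adjusted p = 0.00228). Treated over untreated, Cybb fell by 2.99 ± 0.50 on the log2 scale (adjusted p = 0.00104 in the same edgeR fit), which is 7.94-fold lower.

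Cyba encodes p22phox, which stabilises gp91phox and docks p47phox, and which also partners other oxidases such as Nox4 in cells that are not phagocytes. Cyba was at 48.5, 40.9, 27.1 and 25 CPM in treated libraries, at 193, 142, 124 and 164 CPM in untreated libraries and at 59.6, 34.8, 25.3 and 38.3 CPM in WT libraries. It showed the smallest estimates of the 5 in both comparisons. The log2 fold change was 1.98 ± 0.28 for untreated over WT (edgeR adjusted p = 0.000348) and -2.14 ± 0.28 for treated over untreated (adjusted p = 0.00025). Its standard errors were also the smallest of the 5.

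Ncf1 encodes p47phox, the organiser that is phosphorylated on activation and carries the cytosolic complex to p22phox. Ncf1 was at 32.6, 28.5, 21.6 and 12.9 CPM in treated libraries, at 236, 208, 139 and 174 CPM in untreated libraries and at 62.4, 44.9, 17.4 and 30.1 CPM in WT libraries. Untreated libraries ranged 1.7-fold from lowest to highest, the widest of the 5 genes in that group. The log2 fold change was 2.29 ± 0.38 for untreated over WT (edgeR adjusted p = 0.000973) and -2.98 ± 0.39 for treated over untreated (adjusted p = 0.000287), close in size to that of Cybb.

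Ncf4 encodes p40phox, which binds phosphatidylinositol 3-phosphate on the phagosome. Ncf4 was at 19.7, 11.3, 10.7 and 5.87 CPM in treated libraries, at 72, 60, 61.8 and 82.1 CPM in untreated libraries and at 22.9, 16.5, 5.84 and 16.2 CPM in WT libraries. The log2 fold change was 2.16 ± 0.40 for untreated over WT (edgeR adjusted p = 0.0016) and -2.54 ± 0.40 for treated over untreated (adjusted p = 0.000743).

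Rac2 encodes the Rac GTPase of blood cells, which binds GTP and completes the active oxidase. Rac2 was at 36, 25.8, 21 and 11.2 CPM in treated libraries, at 130, 104, 104 and 152 CPM in untreated libraries and at 36.3, 20.9, 10.5 and 23.5 CPM in WT libraries. The log2 fold change was 2.42 ± 0.39 for untreated over WT (edgeR adjusted p = 0.00075) and -2.38 ± 0.39 for treated over untreated (adjusted p = 0.000823). Rac2 was the member whose treated and WT means lay closest, at 23.5 ± 10.3 and 22.8 ± 10.6 CPM (SD, n = 4 each).

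The count of 5 of 5 has to be read against how much of the transcriptome moved. In untreated over WT, 39.2% of the 15968 genes passed the threshold of 0.05 on the adjusted p, 19.6% higher and 19.7% lower. In treated over untreated, 37.2% passed, 18.5% higher and 18.8% lower. The counts given below for other gene lists have to be read against the same shares. The median log2 fold change of the members was 2.29 in the first comparison and -2.54 in the second, against -0.02 and 0.03 over all genes tested. Both comparisons use the same untreated libraries, so a gene high in them is placed high in the one and low in the other.

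**Figure D2:**
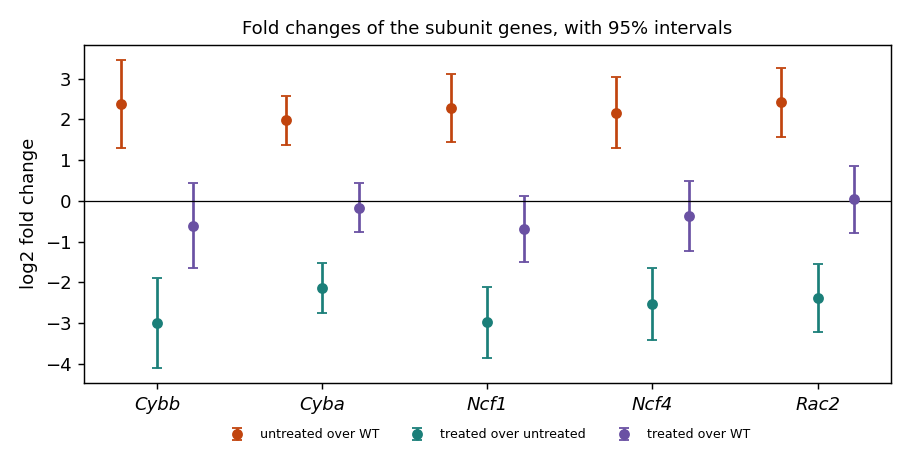
Log2 fold changes of the 5 oxidase genes in 3 comparisons, from 1 edgeR fit over 12 libraries. Points are estimates and bars are 95% intervals. The intervals for untreated over WT lie above 0 and those for treated over untreated below 0, while all 5 intervals for treated over WT contain 0.

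Between treated and WT libraries 0 of the 5 members passed, where 0.257% of all genes did (41 genes, 0.175% higher and 0.0814% lower, with 1697 genes at an unadjusted p under 0.05). DESeq2 also called 0 of the 5, and 275 genes in all. The log2 fold changes of treated over WT were -0.60 (95% interval -1.64 to 0.43) for Cybb, -0.16 (-0.75 to 0.43) for Cyba and -0.70 (-1.51 to 0.12) for Ncf1. They were -0.37 (-1.23 to 0.49) for Ncf4 and 0.04 (-0.78 to 0.86) for Rac2. These intervals are wide, and equal levels were not shown. Without WT library 1 the estimate for Cybb was 0.07 and that for Cyba 0.11, opposite in sign to those with it.

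The spread within a group was shared by the members. WT library 1 was the highest and WT library 3 the lowest of its group for all 5, and treated library 1 was the highest and treated library 4 the lowest of its group for all 5. The same libraries were highest and lowest for the summed macrophage markers and the summed pan-leukocyte genes described below, so this order is not particular to the members. The WT range was widest for Cybb, at 5.39-fold, and narrowest for Cyba, at 2.35-fold. Treated libraries ranged 1.94-fold (Cyba) to 3.53-fold (Cybb). Untreated libraries ranged only 1.27-fold (Cybb) to 1.7-fold (Ncf1), and there the order of libraries differed between genes. Untreated library 4 had the lowest Cybb but the highest Ncf4 and Rac2.

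Compared per length of transcript, on the deposited log2(FPKM + 1) scale, the level of Cyba was the highest of the 5 in all 12 libraries. Converted back from that scale, Cyba averaged 52.2 ± 16.4 FPKM in treated, 220 ± 39.1 FPKM in untreated and 59 ± 21.8 FPKM in WT libraries (SD, n = 4 each). Cybb, its partner chain in phagocytes, averaged 8.46 ± 3.77 FPKM in treated, 64.6 ± 7.43 FPKM in untreated and 13 ± 10 FPKM in WT libraries. Rac2 was the lowest of the 5 in all 4 untreated libraries, at 42.4 ± 7.76 FPKM. In untreated library 4 it was just below Cybb, at 5.74 against 5.77 log2(FPKM + 1). Between the other members the order varied. Cybb and Ncf4 changed places between libraries of each group. Ncf1 was above Cybb in all 4 treated libraries, with 3.8 against 3.76 log2(FPKM + 1) at the closest, in treated library 1. That order changed among untreated and among WT libraries. Ncf1 was also above Ncf4 in all 4 untreated libraries, with 6.08 against 5.9 log2(FPKM + 1) at the closest, in untreated library 4. In treated library 1 Ncf1 was below Ncf4, at 3.8 against 3.96.

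Within a library, the ratio of 2 members does not depend on library size. Over 10 pairs and 3 comparisons, 0 of 30 differences in log2 ratio passed after Benjamini-Hochberg adjustment (lowest adjusted p = 0.171, two-sided exact permutation tests of 4 against 4, whose smallest possible p is 0.0286). For any of the 30 to pass, at least 18 would have to lie at that smallest p, so the adjusted test says little about any single ratio. With groups that did not overlap, 5 of the 30 lay there. Cybb over Cyba was 1.14, 1.01, 1.28 and 0.625 in treated libraries and 1.59, 2.16, 2.49 and 1.48 in untreated libraries, a difference of -0.94 in mean log2 ratio. Cyba over Ncf1 differed by 0.85 between the same groups, higher in treated libraries. Ncf1 over Rac2 was 0.905, 1.11, 1.03 and 1.15 in treated libraries and 1.72, 2.15, 1.66 and 1.28 in WT libraries, a difference of -0.67. The remaining 2 were Ncf4 over Rac2, at -0.38 for treated minus WT, and Cyba over Rac2, at -0.49 for untreated minus WT.

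Macrophage genes moved with the members. Of 12 macrophage markers, all tested, 10 rose and 0 fell in untreated over WT, and 0 rose and 11 fell in treated over untreated. Their median log2 fold changes were 2.60 and -2.52. The complement gene C1qa was at 713 ± 155 CPM in untreated and 102 ± 26.8 CPM in WT libraries (log2 fold change 2.80, edgeR adjusted p = 3.53e-05). Against these untreated libraries it was at 110 ± 31.8 CPM in treated libraries (log2 fold change -2.70, adjusted p = 4.42e-05). The summed markers were at 994, 770, 552 and 491 CPM in treated libraries, at 4030, 4230, 3800 and 5320 CPM in untreated libraries and at 1330, 593, 441 and 786 CPM in WT libraries. All 6 pan-leukocyte genes, among them Ptprc, which encodes CD45, rose in untreated over WT and fell in treated over untreated. How much of the change in the oxidase genes goes with the macrophage signal was examined by ratios within libraries.

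As a share of the summed macrophage markers, Cybb was 5.55, 5.37, 6.28 and 3.19% in treated libraries, 7.61, 7.28, 8.13 and 4.55% in untreated libraries and 8.9, 7.9, 4.96 and 4.61% in WT libraries. Cyba was 4.88, 5.31, 4.91 and 5.1% in treated libraries, 4.79, 3.37, 3.27 and 3.08% in untreated libraries and 4.5, 5.87, 5.74 and 4.86% in WT libraries. Relative to these markers, then, Cyba was lower in each untreated library than in any treated one, while its CPM was higher. The sum is not weighted, so markers with high CPM count most. In untreated libraries the highest were C1qb, C1qa and C1qc, at means of 855, 713 and 667 CPM. Over WT they rose by 7.17-fold, 6.96-fold and 7.31-fold, and the other markers that rose did so by 4.11-fold to 6.76-fold. For Cyba the mean log2 ratio was -4.29 ± 0.06 in treated and -4.80 ± 0.29 in untreated libraries (SD, n = 4 each), a difference of 0.52 (exact permutation p = 0.0286, adjusted p = 0.286 over 15 tests). Ncf1 was 3.28, 3.71, 3.92 and 2.63% in treated libraries, 5.85, 4.91, 3.65 and 3.26% in untreated libraries and 4.7, 7.58, 3.94 and 3.83% in WT libraries. Its difference in mean log2 ratio for treated minus WT was -0.52 (exact permutation p = 0.0571, adjusted p = 0.286), with groups that overlapped. Ncf4 was 1.2 to 1.98% in treated, 1.42 to 1.79% in untreated and 1.32 to 2.78% in WT libraries. Rac2 was 2.29 to 3.8% in treated, 2.47 to 3.22% in untreated and 2.38 to 3.52% in WT libraries. Of 15 such ratios across members and comparisons, 0 passed after adjustment, but at least 9 of them would have to lie at the smallest possible p for any to pass, so a change of the members beyond that of the markers was neither shown nor excluded. Against the summed pan-leukocyte genes in place of the macrophage markers, 2 of 15 ratios lay at that p with groups that did not overlap (exact permutation p = 0.0286, adjusted p = 0.214). They were Cyba, with a difference of 0.56 for treated minus untreated, and Ncf1, with -0.43 for treated minus WT. Against the macrophage markers the largest difference in size was -0.56 on the log2 scale, for Cyba in untreated minus WT.

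**Figure D3:**
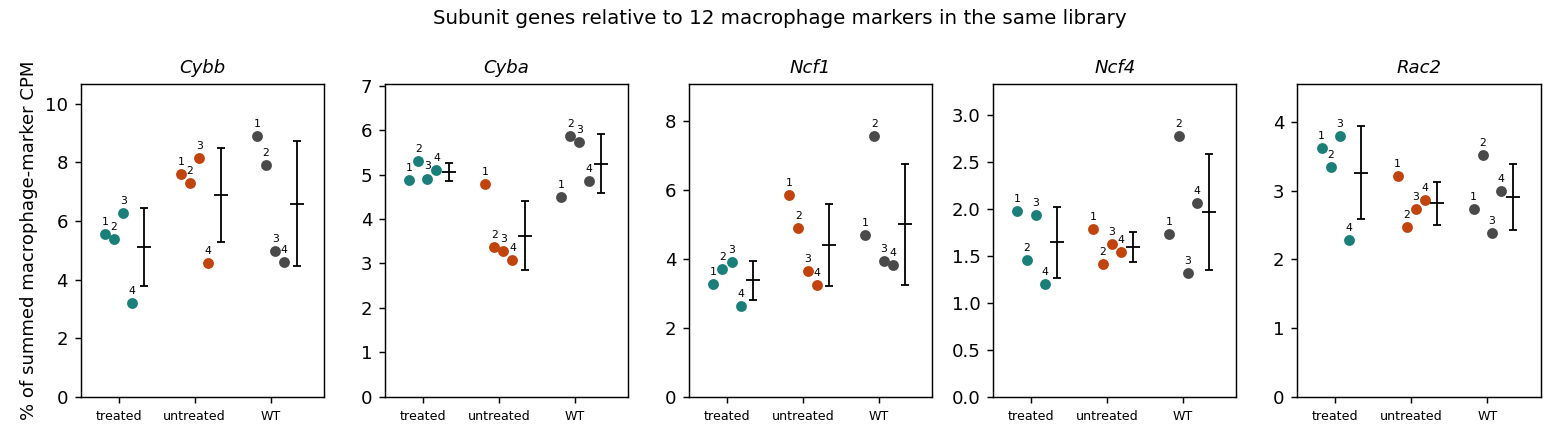
Each oxidase gene as a percentage of the summed CPM of 12 macrophage markers in the same library, for treated Bbs2-/-, untreated Bbs2-/- and WT groups, on linear axes from 0. Points are libraries with their replicate number, and the bar is the mean with 1 SD (n = 4). Treated and untreated libraries overlap in every panel but that of Cyba, where the treated libraries lie at 4.88 to 5.31% and the untreated ones at 3.08 to 4.79%.

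Most markers of neutrophils, which are rich in this oxidase, were at or near 0. Of 11 neutrophil markers only 4 were tested, and Ly6g had at most 1 count, Camp 10, Retnlg 7, Ltf 20, Ngp 29 and Mmp8 36 counts in any library. Csf3r, the receptor for granulocyte colony-stimulating factor, which monocytes also carry, rose to 23.7 ± 4.71 CPM in untreated libraries, against 5.53 ± 1.91 CPM in WT libraries (edgeR adjusted p = 0.000956). S100a8 also rose, to 41.8 ± 6.51 CPM in untreated libraries against 14.8 ± 8.56 CPM in WT libraries (edgeR adjusted p = 0.0224), and so did S100a9, at 1.08 ± 0.654 CPM against 0.379 ± 0.217 CPM (adjusted p = 0.0427). The fourth, Elane, fell to 0.272 ± 0.0239 CPM in untreated against 0.91 ± 0.622 CPM in WT libraries (adjusted p = 0.0161). In treated over untreated, Csf3r and S100a8 fell (edgeR adjusted p = 0.00072 and 0.038) and S100a9 and Elane did not pass. The S100a9 call in untreated over WT was lost under 16 of 21 alternatives and the S100a8 call in treated over untreated under 10 of 22. In untreated over WT the S100a8 call was lost under 4 of 22 alternatives and the Elane call under 3 of 20, while in treated over untreated S100a9 passed under 2 of 21. The summed neutrophil markers were at 10 to 35 CPM in treated, 60.8 to 78.5 CPM in untreated and 16.3 to 34.5 CPM in WT libraries.

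Lymphocyte markers were at lower levels than macrophage markers. The 7 B cell markers summed to 5.25 to 16.8 CPM in treated, 17.6 to 52.8 CPM in untreated and 5.87 to 8.17 CPM in WT libraries, with 6 of 7 rising in untreated over WT and 3 of 7 falling in treated over untreated. The 8 T cell markers summed to 7.45 to 17.9 CPM in treated, 14.1 to 24.1 CPM in untreated and 7.84 to 12.6 CPM in WT libraries. In untreated over WT 4 of the 8 rose, where 19.6% of all genes tested did. In treated over untreated 1 of 8 fell, which is near the share of 18.8% over all genes tested. Adipocyte markers went the other way from the oxidase genes. Of 10, 9 fell in untreated over WT and the same number rose in treated over untreated, such as Adipoq, which encodes adiponectin, with log2 fold changes of -2.06 (edgeR adjusted p = 8.24e-05) and 1.68 (adjusted p = 0.000195). Of 7 endothelial markers, 0 passed in untreated over WT and 4 rose in treated over untreated. Of 6 ciliated epithelium markers, 3 fell in untreated over WT and 2 rose in treated over untreated. In WT libraries 1 to 4 their sum was 12.5, 3.58, 2.45 and 29.7 CPM. In treated libraries 1 to 4 it was 27.8, 7.73, 25.5 and 2.83 CPM. Untreated libraries were at 4.02 to 6.23 CPM, above WT libraries 2 and 3 and treated library 4. The 4 highest sums were those of the libraries with Foxj1 counts. The part of these cell types in the levels of the oxidase genes was not tested.

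Among the other NADPH oxidases, their partners and Rac paralogs, 13 genes were listed and 8 were tested. In untreated over WT 4 of the 8 rose and 0 fell, and in treated over untreated 0 rose and 4 fell, with medians of 0.32 and -0.32 on the log2 scale. Where a gene has a pair of log2 fold changes here and for the lists that follow, they are those for untreated over WT and then for treated over untreated. Nox4, an oxidase of fat and vessel cells that needs p22phox but no cytosolic organiser, was at 3.67, 1.91, 3.12 and 1.63 CPM in treated, 7.01, 9.53, 8.93 and 7.7 CPM in untreated and 2.67, 1.89, 3.45 and 3.02 CPM in WT libraries. Untreated libraries stood apart from both other groups, with log2 fold changes of 1.59 for untreated over WT (edgeR adjusted p = 0.00109) and -1.68 for treated over untreated (adjusted p = 0.000787). Cybc1, which encodes the chaperone Eros needed for gp91phox and p22phox, was at 24.7, 25.5, 23.9 and 20.7 CPM in treated, 44.1, 44.5, 43 and 50.7 CPM in untreated and 29.6, 23.4, 23.1 and 27.3 CPM in WT libraries. Its log2 fold changes were 0.82 (edgeR adjusted p = 0.000199) and -0.94 (adjusted p = 0.000104), smaller estimates than those of the chains it serves.

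Rac1, the paralog of Rac2 that nearly all cells express, was at 314 ± 22.3 CPM in treated, 382 ± 24 CPM in untreated and 311 ± 14.8 CPM in WT libraries. It rose by 0.29 on the log2 scale in untreated over WT (edgeR adjusted p = 0.0169), and treated over untreated it fell by 0.28 (adjusted p = 0.0215). Without the 4 libraries with Foxj1 counts neither call was kept, with log2 fold changes of 0.30 ± 0.11 (SE, edgeR adjusted p = 0.0595) and -0.22 ± 0.11 (adjusted p = 0.155). Without WT 2 and WT 3 the estimate for untreated over WT was 0.29 ± 0.11 (edgeR adjusted p = 0.101). The estimates for untreated over WT thus stayed close to that with all libraries, and their standard errors were larger. Rac3 (0.35 and -0.29), the organiser Noxo1 (-0.08 and 0.09), Duox1 (-0.30 and -0.35) and its maturation factor Duoxa1 (0.13 and -0.19) passed in neither comparison. Nox1, Nox3, Noxa1, Duox2 and Duoxa2 were below the filter, with at most 12 counts in any library.

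Of 24 genes that encode exchange factors, kinases and other regulators of oxidase assembly, 19 rose and 2 fell in untreated over WT, and 2 rose and 21 fell in treated over untreated. The medians were 1.65 and -1.85 on the log2 scale. Coro1a encodes coronin 1A, an actin-binding protein of leukocytes that binds p40phox, and Arhgdib encodes a blood cell inhibitor that holds Rac in the cytosol. Coro1a was at 153 ± 21.4 CPM in untreated and 32.7 ± 8.74 CPM in WT libraries (log2 fold change 2.23, edgeR adjusted p = 0.000132), and treated over untreated it was at -1.87 (adjusted p = 0.000284). Arhgdib had log2 fold changes of 1.51 (edgeR adjusted p = 0.000235) and -1.64 (adjusted p = 0.000159). Prkcb, a protein kinase C that phosphorylates p47phox, had 2.31 (edgeR adjusted p = 0.00122) and -2.81 (adjusted p = 0.000469). Pik3cd, the leukocyte phosphoinositide 3-kinase delta, had 1.84 (edgeR adjusted p = 0.00049) and -1.78 (adjusted p = 0.000591).

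The 2 regulators that went the other way are named after their values were seen. Prkca, another protein kinase C, was at 21.5 ± 4.16 CPM in treated, 10.8 ± 2.53 CPM in untreated and 20 ± 3.57 CPM in WT libraries, with log2 fold changes of -0.89 for untreated over WT (edgeR adjusted p = 0.00351) and 0.997 for treated over untreated (adjusted p = 0.00195). Prdx6, a peroxiredoxin with phospholipase A2 activity, had -0.57 (edgeR adjusted p = 0.0216) and 0.73 (adjusted p = 0.00623). The plot of pathway fold changes shows these 2 on the opposite side from the rest of their list.

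**Figure D4:**
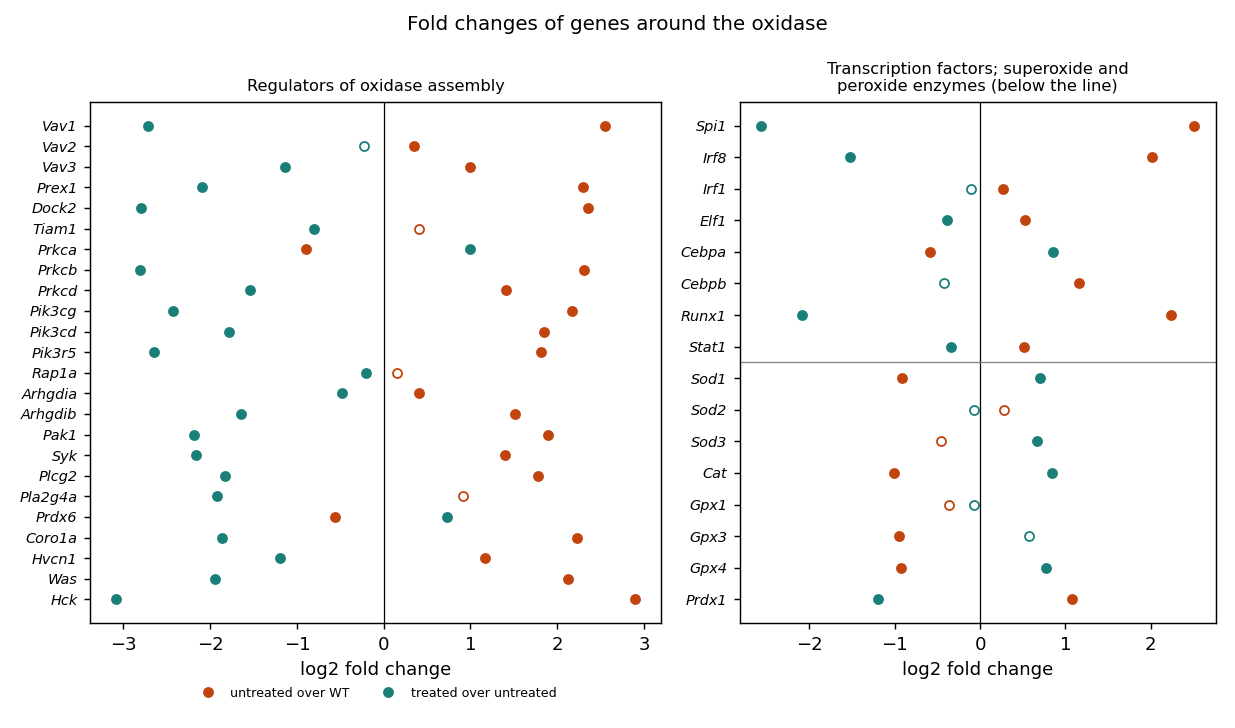
Log2 fold changes of 24 regulators of oxidase assembly (left) and of 8 transcription factors and 8 superoxide and peroxide enzymes (right), for untreated over WT and treated over untreated. Filled points passed the edgeR adjusted p of 0.05 and open points did not. Most regulators lie above 0 for untreated over WT and below 0 for treated over untreated, with Prkca and Prdx6 reversed.

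Of 8 tested transcription factors known from the oxidase promoters, 7 rose and 1 fell in untreated over WT, and 1 rose and 5 fell in treated over untreated. Spi1, which encodes PU.1, the factor that myeloid cells need to form, was at 22.6, 18.7, 12.5 and 9.39 CPM in treated, 113, 88.5, 72.5 and 101 CPM in untreated and 30.3, 11.8, 8.16 and 15.3 CPM in WT libraries. As for the members, untreated libraries did not overlap with the others, and the log2 fold changes were 2.51 (edgeR adjusted p = 0.000635) and -2.56 (adjusted p = 0.000572). Runx1, a factor of blood cell formation, had 2.24 (edgeR adjusted p = 0.000273) and -2.09 (adjusted p = 0.000388), and Irf8, a factor of monocyte formation, had 2.01 (edgeR adjusted p = 0.00139) and -1.53 (adjusted p = 0.00597). Cebpb rose by 1.16 in untreated over WT (edgeR adjusted p = 0.00112) and was at -0.42 in treated over untreated (adjusted p = 0.117), where it passed under 3 of 22 alternatives. Cebpa, which adipocytes also use, was the 1 that fell in untreated over WT (-0.59, edgeR adjusted p = 0.0429) and rose in treated over untreated (0.85, adjusted p = 0.00811). The first of these calls was lost under 11 of 22 alternatives (edgeR or other adjusted p of 0.0545 to 0.301).

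Enzymes that remove superoxide and peroxide showed another pattern. Of 8 tested, 1 rose and 4 fell in untreated over WT, and 4 rose and 1 fell in treated over untreated, with medians of -0.68 and 0.63 on the log2 scale. Sod1, the cytosolic superoxide dismutase, was at 365 ± 57.6 CPM in treated, 224 ± 20 CPM in untreated and 421 ± 85.5 CPM in WT libraries. It fell by 0.91 on the log2 scale in untreated over WT (edgeR adjusted p = 0.00106) and rose by 0.70 in treated over untreated (adjusted p = 0.00459). Catalase (Cat) had -1.01 (edgeR adjusted p = 0.00161) and 0.85 (adjusted p = 0.00455), and the lipid peroxidase Gpx4 had -0.93 (edgeR adjusted p = 0.000455) and 0.77 (adjusted p = 0.00132). Prdx1, a peroxiredoxin, moved with the oxidase genes instead, at 1.08 (edgeR adjusted p = 0.00291) and -1.20 (adjusted p = 0.0017). Its untreated libraries spread widely, at 1050 ± 478 CPM (SD, n = 4). The WT libraries were at 498 ± 19.8 CPM and the treated ones at 460 ± 7.74 CPM. As single libraries were left out, the estimates for Prdx1 ranged from 0.72 to 1.24 and from -1.34 to -0.83. Mpo, which encodes the myeloperoxidase of neutrophils, had at most 7 counts in any library and was not tested.

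The genes whose pattern over the 12 libraries was most like a member's were found by the root mean square difference of log2 CPM after the gene's own mean was taken off, where a smaller value is a closer match. For Cybb these were Soat1 at 0.132, which encodes the enzyme that esterifies cholesterol, Dock2 at 0.134, which encodes an exchange factor for Rac, Nckap1l at 0.168, Apobec1 at 0.173 and Lcp1 at 0.195. For Cyba they were Emp3 at 0.11, Alox5ap at 0.111, which encodes the protein that presents arachidonic acid to 5-lipoxygenase, Metrnl at 0.115, Efhd2 at 0.134 and Uap1l1 at 0.149. For Ncf1 they were Arhgap25 at 0.175, which encodes a GTPase-activating protein for Rac, Prkcb at 0.186, Cd44 at 0.193, Slc11a1 at 0.213 and Anpep at 0.224. The genes nearest to Ncf4 were Rac2 at 0.206, Rgs2 at 0.232, Matk at 0.233, Pirb at 0.244 and Cd83 at 0.247. Those nearest to Rac2 were Evi2b at 0.178, Spi1 at 0.204, Cyth4 at 0.205, Ncf4 at 0.206 and Sla at 0.214. Between members the value ran from 0.206 for Ncf4 and Rac2, which lie on the same chromosome, to 0.557 for Cybb and Cyba, the pair that forms the membrane core. These values describe 12 libraries that share 3 groups, so a gene can score as close largely through similar differences between groups. Deviations of single libraries within a group count in the value too.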

How the data were processed

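RNA of frozen adipose tissue went into TruSeq Stranded mRNA libraries, per the labels' protocols. The authors deposited an expected count per gene and library, without scaling, and between 92.96 and 94.17% of these estimated counts were whole within 1e-06. They also deposited a table of log2 FPKM values for 18810 genes. The log2 values deposited fit log2(FPKM + 1) against the counts and share an upper quartile of 3.96. The submitters' processing notes name mm10. The aligner, the counter and its settings were not given in the sources used here. Of 53431 identifiers, 52207 matched the GENCODE annotation, from which symbols were taken.

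Counts were rounded and tested with edgeR 4.0.16 (TMM, filterByExpr, robust quasi-likelihood) in R 4.3.3, with 12 libraries in 1 fit and Benjamini-Hochberg adjustment over 15968 genes. CPM uses the TMM-scaled library size. Ratios within a library were computed on CPM + 0.5 and compared with exact permutation tests in scipy 1.17.1. Alternatives were DESeq2 1.42.0, limma 3.58.1 (limma-trend) on the log2 FPKM values, other scalings, filters and subsets of libraries. The procedure was tested on simulated data. Replicates differed by far more than sampling noise (chi-square per degree of freedom 16.9 to 84.9).

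The members and the gene lists were chosen with earlier results of these data known. The genes named are the members, up to 4 genes per list with the smallest p in either of the first 2 comparisons, tested genes of the other oxidases and the 5 nearest in pattern. T cell, B cell and ciliated lists are given by counts and summed levels, apart from Foxj1, and the endothelial list by counts. Single-gene results for 1 listed gene are not reported here, and it stays in the counts of its list. The epididymis genes were added after the data were seen.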

Additional observations from a re-analysis of the deposited data

Results flagged for a closer look

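Untreated Bbs2-/- library 4 had a Cybb level of 242 CPM, apart from the 306, 308 and 309 CPM of the other 3 untreated libraries, and its gap to them was a larger part of the group's range than Dixon's 95% critical value for 4 samples. Over 15 groups of 4 libraries looked at (5 genes in 3 groups), this was the 1 that stood out, and chance flags about 1 in 20. The same library had the highest summed macrophage markers of the 12, at 5320 CPM, and the highest Ncf4 and Rac2, at 82.1 and 152 CPM. Without it the log2 fold changes of all 5 genes kept their calls.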

How the results depend on the processing

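All 5 members passed in untreated over WT and in treated over untreated under each of the 22 alternatives to the fit that were run, and 0 of 5 passed in treated over WT. Their log2 fold changes ranged over these from 1.68 to 3.08 (highest adjusted p = 0.0344, without WT 2 and WT 3) and from -3.34 to -2.01 (highest adjusted p = 0.0045). In treated over WT the range was -1.06 to 0.36 (lowest adjusted p = 0.369) and signs turned, and the cause was not tested. There Cybb ranged from -0.87 to 0.068, Cyba from -0.33 to 0.11 and Rac2 from -0.22 to 0.36 as single libraries were left out. Without the libraries with Foxj1 counts Cyba was 0.14, and without WT 2 and WT 3 Rac2 was -0.33.

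Genes called in untreated over WT numbered 6263, and 3417 without WT 2 and WT 3, which leaves 2 WT libraries. In treated over WT 41 genes were called, against 275 with DESeq2, 24 on log2 FPKM, 9 with the replicate block, 2 with only the 2 groups fitted, 2 without the Foxj1 libraries, 1 without WT 2 and WT 3, and 3 to 49 as single libraries were left out. With library size alone, 69.0% of the calls in untreated over WT were higher, against 49.9%, with a median log2 fold change of 0.16 over all genes, and 35.5% in treated over untreated, against 49.6%.

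Signs also turned for genes that did not pass. In untreated over WT without WT 2 and WT 3, Duox1 was 0.091, Duoxa1 -0.015 and Noxo1 0.0155, and Noxo1 was 0.11 with library size alone and -0.21 to 0.0058 as single libraries were left out. In treated over untreated, Noxo1 was -0.024 with library size alone and -0.36 without the Foxj1 libraries, and as single libraries were left out Noxo1 ranged from -0.16 to 0.24 and Duoxa1 from -0.47 to 0.038. Calls of Rac1, Cebpa, S100a8, S100a9, Elane and Soat1 were lost under at least 1 alternative, and those of Cebpb (3 of 22) and S100a9 (2 of 21) in treated over untreated were gained under some.

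Deviations of same-numbered libraries correlated at -0.149 to 0.308, and in 8 of 24 cases a library correlated best with its own number. Pairing of the samples by replicate number was thus neither shown nor excluded. With the replicate block, 6012 and 5680 genes were called in the first and second comparisons, against 6263 and 5947. No ratio moved beyond the spread between libraries. Protein sequences of the members were not compared.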
